A study of Mus musculus with 4 samples.

Results

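The genes described here are 43 mouse genes of glutathione, peroxiredoxin and antioxidant metabolism, chosen by symbol among the 19354 genes of the expression table. All 43 had a row, and all 43 passed the filter on low values, which was a mean of at least 1 CPM (reads of a gene scaled to a fixed library total) over the 4 libraries. They were measured by RNA-Seq in hematopoietic stem cells (HSCs), sorted as LSK FLT3- CD48- CD150+ cells (LSK cells lack lineage markers and carry SCA-1 and KIT). The control mice were *Mx1-Cre* *Id2*+/+ and the others *Mx1-Cre* *Id2*Fl/Fl, both of 8 to 16 weeks of age, backcrossed to C57BL/6 and treated with polyinosinic:polycytidylic acid (pIpC) 2 weeks before the sort, so Cre and pIpC were common to both genotypes. The *Mx1* promoter responds to interferon in many cell types, and deletion of *Id2*, which encodes an inhibitor of helix-loop-helix transcription factors, was therefore not limited to HSCs. In 2 experiments cells of 14 control mice and 15 *Id2*Fl/Fl mice were pooled, and each genotype gave 2 libraries, called *Id2*+/+ replicates 1 and 2 and *Id2*Δ/Δ replicates 1 and 2. The labels do not tie a library to an experiment, so each p-value measures only the spread between these libraries. The question was whether HSCs without *Id2*, a regulator that the study links to HSC quiescence and oxygen metabolism, carried other levels of the RNAs that handle reactive oxygen species.

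Cells dispose of superoxide and peroxides through a relay. Superoxide dismutases turn superoxide into hydrogen peroxide, and catalase, glutathione peroxidases and peroxiredoxins reduce peroxides to water or alcohols. The electrons come from NADPH through glutathione, kept reduced by glutathione reductase, or through thioredoxin, kept reduced by thioredoxin reductase. The transcription factor NRF2, encoded by *Nfe2l2*, is held for degradation by KEAP1 until oxidants or electrophiles modify KEAP1, and then drives many of these genes through the antioxidant response element. HSCs are sensitive to reactive oxygen species, and quiescent HSCs are known for low levels of them.

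The deposited values are log2 CPM whose distributions are nearly the same in all 4 libraries, as after quantile normalization, and every level below is on that scale unless it is given per kb. The 4 libraries held 14200000 to 18800000 reads, which makes 3 reads equal to 0.159 to 0.211 CPM. Reads could be recovered as whole numbers below 32 CPM. The targeted gene, *Id2*, had 93 and 98 reads in control libraries against 0 in both *Id2*Δ/Δ libraries, so it was at least 38.5-fold lower, taking 3 reads as the floor in each *Id2*Δ/Δ library. Even *Id2* was not called by limma after adjustment (adjusted p of 0.910), so the absence of a call in this design does not show that a gene did not change. This floor covers counting error only. Of the 4 libraries, *Id2*Δ/Δ replicate 1 had 606 genes without a read, against 170 to 326 in the others. All 12 HSC markers looked for (such as *Procr*, *Hlf* and *Mecom*) were present, with a sum of 6093 and 6023 CPM in *Id2*+/+ and 4444 and 5207 CPM in *Id2*Δ/Δ libraries, and 4 of them had an unadjusted p under 0.05. *Flt3* and *Cd48*, whose products the sort excludes, summed to 48.3 to 57.7 CPM.

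Letters that match the core of the sequence by which NRF2 acts can be shown for some members, without evidence that NRF2 binds there. Of the 43, 38 had a promoter in the RefSeq table (GRCm38.p6), a window of 250 bases before and 50 after the transcription start. The core of the antioxidant response element, TGACNNNGC, was searched on both strands, where the reverse strand reads GCNNNGTCA. It was found in 8 of these 38 members, or 21.1%, counting a gene with a match in any of its promoters, and in the same way in 14.0% of all 27025 genes. Of all 32851 single promoters of that length, 12.4% held it. The 8 windows of 29 bases follow in the direction of the gene, with the match in capitals, since they are where the members' DNA holds these letters.
Gclm (chr3:122245413-122245441, plus strand): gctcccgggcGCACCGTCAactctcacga
Gstm5 (chr3:107895802-107895830, plus strand): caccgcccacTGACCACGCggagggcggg
Mgst1 (chr6:138140461-138140489, plus strand): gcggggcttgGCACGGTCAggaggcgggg
Nfe2l2 (chr2:75704885-75704913, minus strand): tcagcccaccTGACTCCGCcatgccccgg
Prdx1 (chr4:116685456-116685484, plus strand): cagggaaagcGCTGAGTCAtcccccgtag
Sod1 (chr16:90220696-90220724, plus strand): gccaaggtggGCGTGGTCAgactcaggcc
Srxn1 (chr2:152105542-152105570, plus strand): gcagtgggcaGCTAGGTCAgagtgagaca
Txnrd1 (chr10:82859104-82859132, plus strand): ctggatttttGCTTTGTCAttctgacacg
The match lay before the start in 7 of the 8 genes and after it in *Srxn1*. A match says only that the letters are there. Of the 8 genes, 4 had a log2 fold change above 0 and 4 below, and their median was 0.04, as was that of the 30 members without a match.

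HSCs held many of these RNAs at high levels. Per kb of the longest annotated transcript, the median member stood at 29.1 CPM per kb and the median tested gene at 9.35, and 11 of the 43 members were among the top 5% of tested genes. Which transcript the cells used was not determined, so a level per kb reads too low where a shorter one is used. The highest member was *Gpx1*, at 817 CPM per kb, which encodes the main cytosolic glutathione peroxidase. It was followed by the iron-storing ferritin chains *Ftl1* at 566 and *Fth1* at 459 CPM per kb. Next came *Txnip*, the inhibitor of thioredoxin, at 229 CPM per kb and *Prdx6* at 218 CPM per kb. At the other end stood *Slc7a11*, the cystine importer, at 0.162 CPM per kb, with *Gpx8* at 1.65 and *Gpx3* at 1.83 CPM per kb. The summed level of the 43 members was 6613 and 6607 CPM in *Id2*+/+ replicates 1 and 2 and 6880 and 6670 CPM in *Id2*Δ/Δ replicates 1 and 2.

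**Figure D1:**
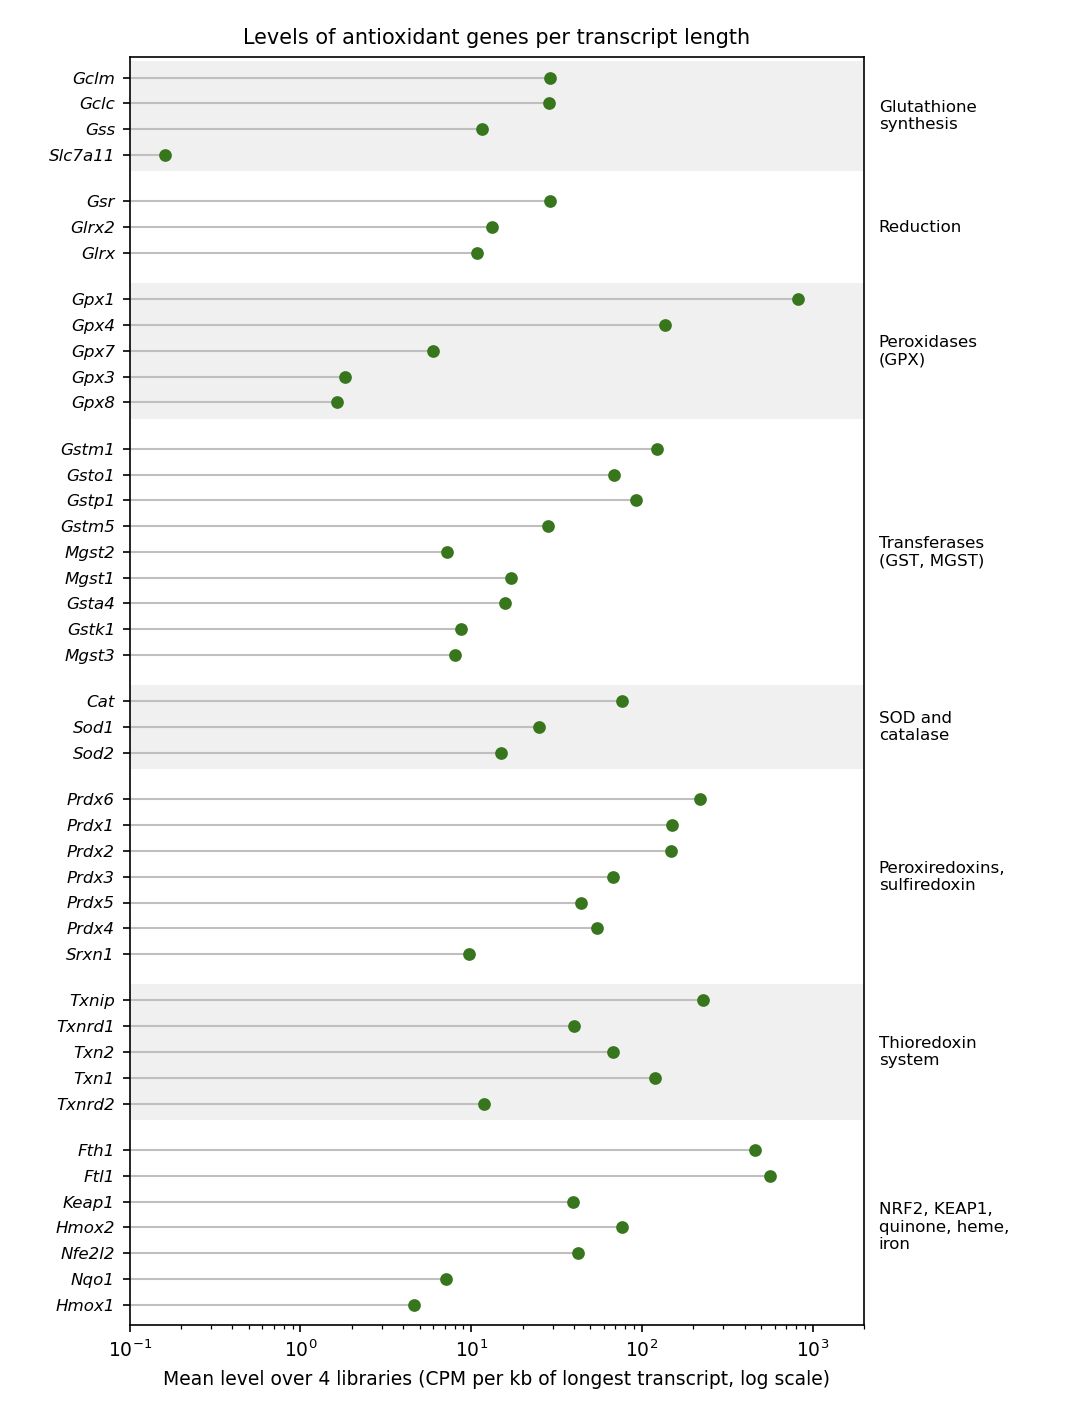
Mean level of each of the 43 genes over the 4 libraries, in CPM per kb of the longest transcript on a log axis, grouped by role. Points run from 0.162 CPM per kb for *Slc7a11* to 817 for *Gpx1*.

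None of the 43 members was called between genotypes (limma, Benjamini-Hochberg adjusted over the 15895 tested genes, threshold 0.05). The smallest adjusted p of any member was 0.910, and 0 of 15895 tested genes (0%) were called. At an unadjusted p under 0.05 stood 1 member, *Mgst2*, beside 742 of all tested genes (4.67%). With 2 libraries on each side, 0.333 is the smallest two-sided p that an exact permutation test could return. In 8 members the *Id2*Δ/Δ libraries were both higher than either *Id2*+/+ library, against 19.0% of all tested genes. In another 8 members they were both lower, against 15.8%, and in 27 members the libraries overlapped. Both counts are close to what those shares would give for 43 genes.

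The differences were small. The log2 fold change, *Id2*Δ/Δ minus *Id2*+/+, was above 0 in 26 members and below 0 in 17, with a median of 0.04 beside 0.01 for all tested genes. It was under 0.2 in size in 36 of 43 members. The median size was 0.10 between genotypes, 0.11 within *Id2*+/+ and 0.19 within *Id2*Δ/Δ, where the first is a difference of means of 2 libraries, which varies less than a difference of single libraries. Over all tested genes the same medians were 0.18, 0.19 and 0.29. A 95% interval from limma that excluded a change of 1.5-fold or more in either direction was found for 30 of 43 members (69.8%), beside 36.6% of all tested genes. The median standard error was 0.152 for the members and 0.220 for all tested genes, and the members were the more abundant. How far abundance set these shares and medians was not tested. The 13 members with wider intervals were *Nqo1*, *Hmox1*, *Gpx3*, *Gpx7*, *Gpx8*, *Gss*, *Slc7a11*, *Gsta4*, *Gstk1*, *Mgst1*, *Mgst2*, *Mgst3* and *Txn1*.

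**Figure D2:**
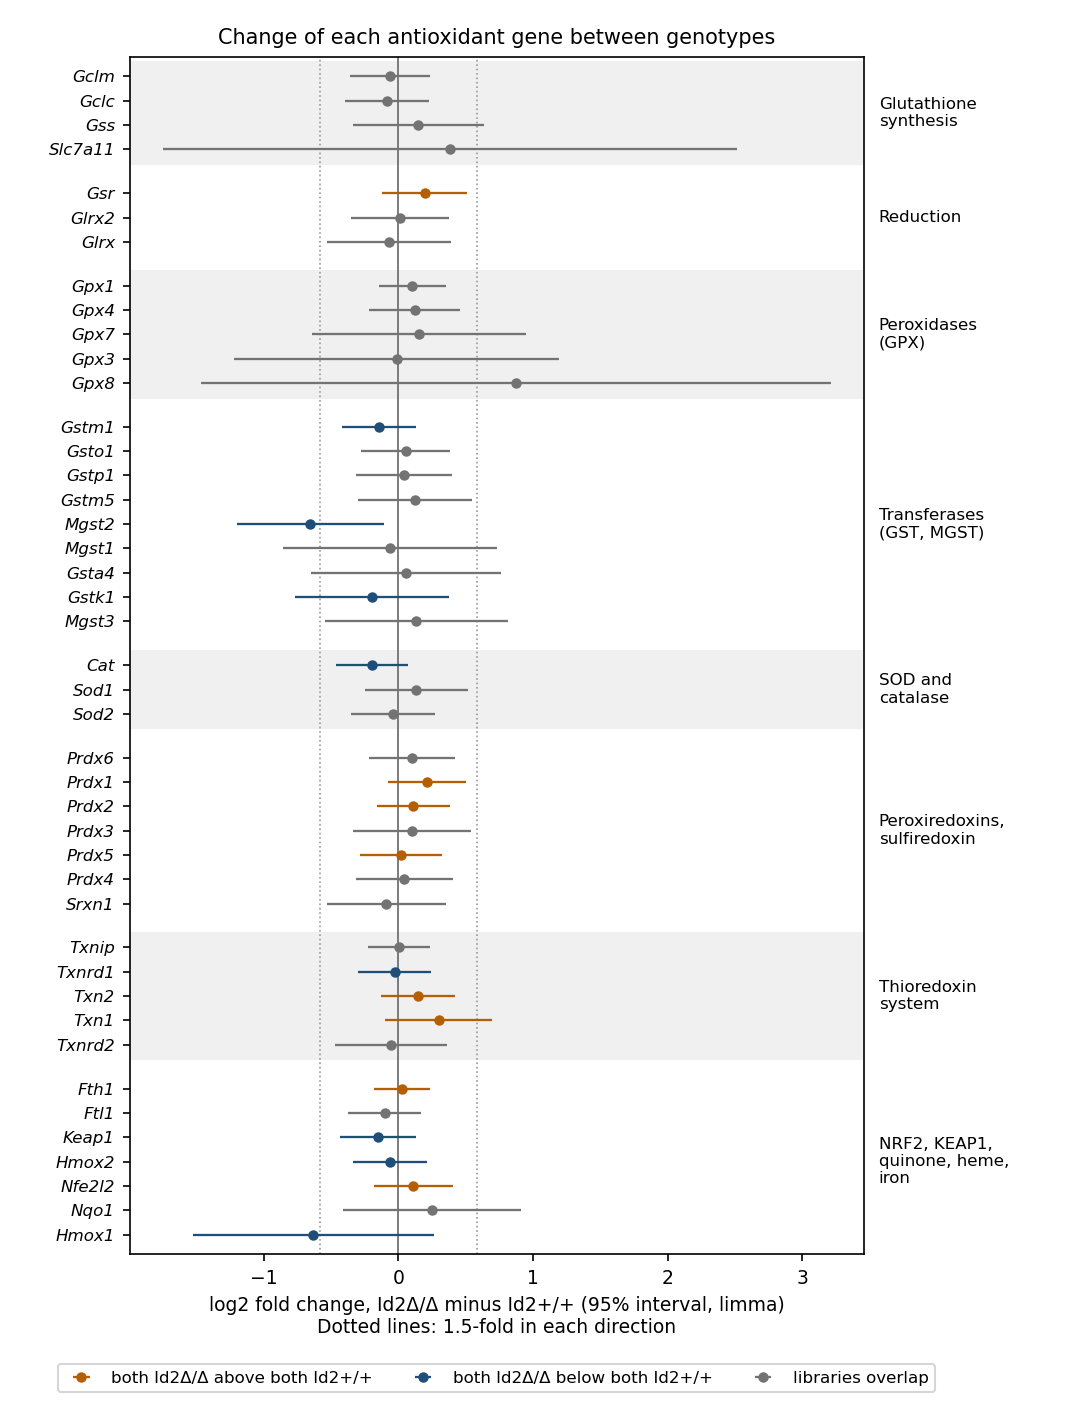
Log2 fold change of each gene between genotypes with its 95% interval from limma, grouped by role, and coloured by whether the 2 libraries of one genotype lie wholly above, wholly below or among those of the other. The interval of *Mgst2* alone leaves out 0, and 30 of 43 intervals lie between the dotted lines at 1.5-fold.

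The library *Id2*Δ/Δ replicate 1 held the highest value of the 4 in 20 of 43 members, beside 33.2% of all tested genes, while *Id2*+/+ replicate 1 did in 12, beside 22.2%. The members' median deviation from their own mean over the 4 libraries was 0.06 in the first *Id2*Δ/Δ library and -0.03 in the other, with 0.00 and -0.02 in the *Id2*+/+ libraries. Without *Id2*Δ/Δ replicate 1 the median fold change of the members was -0.03, and without *Id2*Δ/Δ replicate 2 it was 0.15. Without *Id2*Δ/Δ replicate 2, 7 members had an unadjusted limma p under 0.05 (*Txn1*, *Mgst2*, *Prdx1*, *Prdx3*, *Cat*, *Ftl1* and *Gpx4*), beside 15.8% of all tested genes, and without any other single library no member did. The sign of the members' median thus depended on which *Id2*Δ/Δ library was kept.

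**Figure D3:**
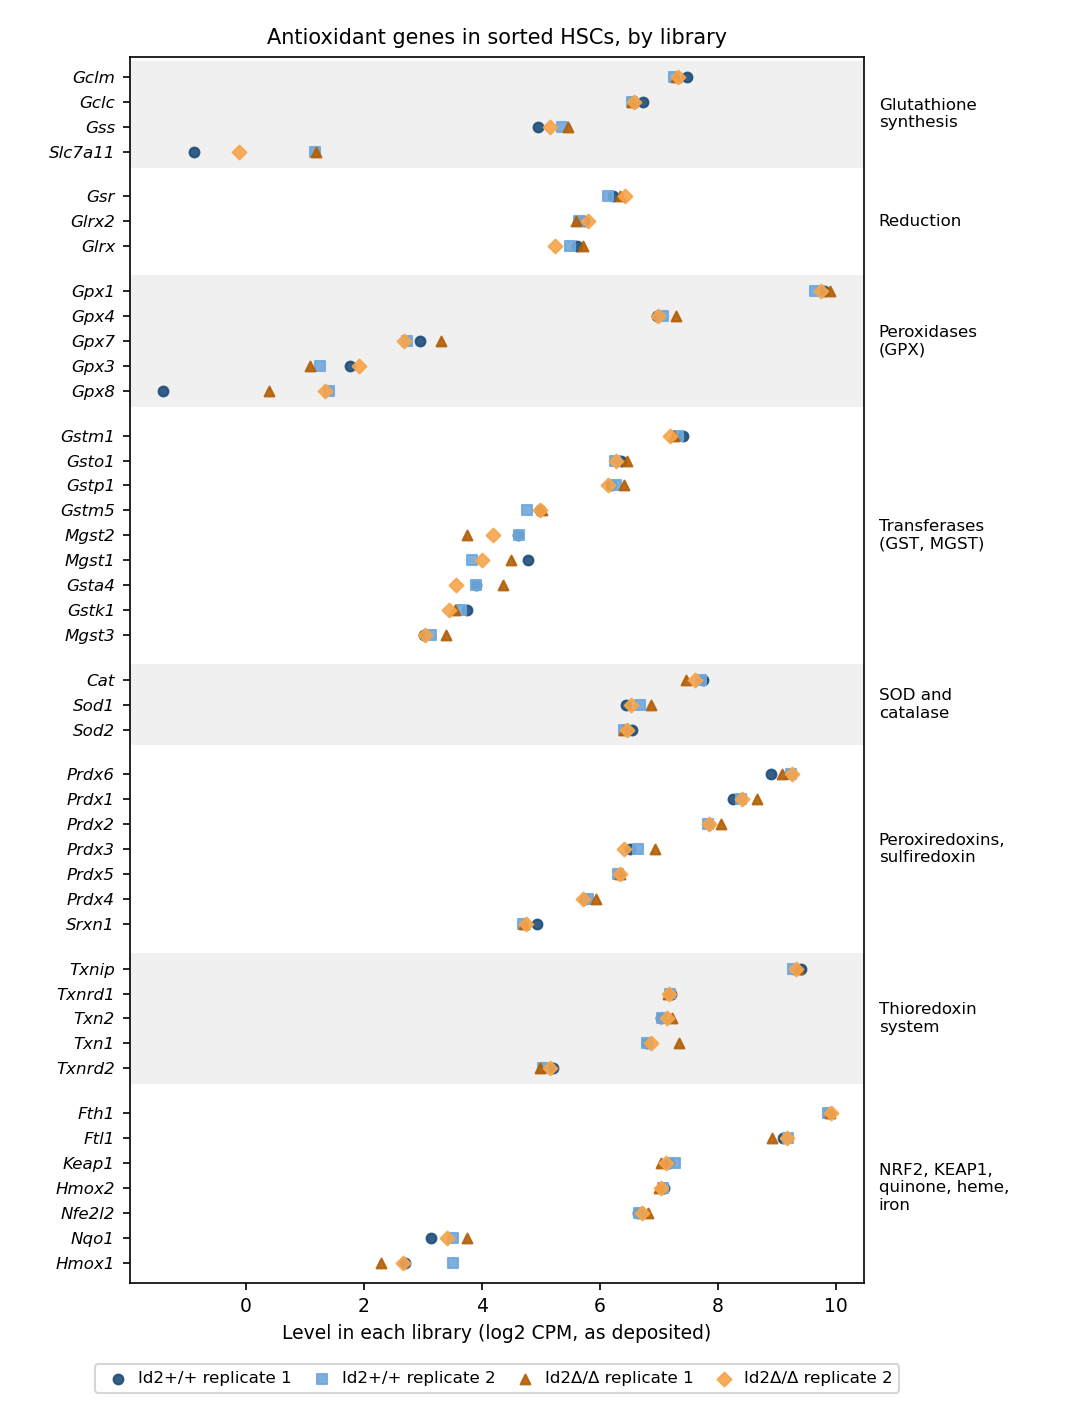
Level of each gene in each of the 4 libraries, in log2 CPM as deposited, grouped by role, with *Id2*+/+ libraries in blue and *Id2*Δ/Δ libraries in orange. The symbols of most genes lie on top of each other, and *Id2*Δ/Δ replicate 1 (triangles) is the highest in 20 of 43 genes.

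Glutathione is made from cysteine, glutamate and glycine. The glutamate-cysteine ligase subunits *Gclc* (catalytic) and *Gclm* (modifier) join cysteine to glutamate, and glutathione synthetase, *Gss*, adds glycine. *Gclm* (ENSMUSG00000028124.15), the most abundant by CPM of the 4 genes of synthesis, was at 7.47 and 7.26 log2 CPM in *Id2*+/+ and at 7.29 and 7.32 in *Id2*Δ/Δ libraries. Its log2 fold change was -0.06 with a standard error (SE) of 0.13, and 0.01 when a trend with transcript length was taken out of each library. *Gss* (ENSMUSG00000027610.17) was at 4.95 and 5.36 in *Id2*+/+ and at 5.45 and 5.15 in *Id2*Δ/Δ libraries.

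The 4 values of *Gss* interleaved, with the lowest in *Id2*+/+ replicate 1 and the highest in *Id2*Δ/Δ replicate 1. The log2 fold change of *Gss* was 0.15 with an SE of 0.21, and its interval from -0.34 to 0.64 allows a rise of over 1.5-fold. Exons of *Gss* overlap those of *Acss2* on the other strand, and whether strand was used in counting is not given in the sources used here. *Gclc* had a log2 fold change of -0.08 (SE 0.13). *Slc7a11*, with 8 and 36 reads in *Id2*+/+ and 40 and 15 reads in *Id2*Δ/Δ libraries, was too low and too uneven to compare, with an interval from -1.75 to 2.52. None of the 4 genes of synthesis separated the genotypes.

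Oxidized glutathione is returned to its reduced form by glutathione reductase, *Gsr*, and glutaredoxins use glutathione to reduce disulfides in proteins. *Gsr* (ENSMUSG00000031584.16) was at 6.22 and 6.14 log2 CPM in *Id2*+/+ and at 6.33 and 6.42 in *Id2*Δ/Δ libraries. Both *Id2*Δ/Δ values were above both *Id2*+/+ values, with a log2 fold change of 0.20 (SE 0.13, interval -0.12 to 0.51). The glutaredoxins *Glrx* and *Glrx2* overlapped between genotypes, with log2 fold changes of -0.07 and 0.01.

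Glutathione peroxidases such as GPX1 spend glutathione on peroxides, and *Gpx4* is the member that reduces lipid peroxides in membranes and restrains ferroptosis. *Gpx1* (ENSMUSG00000063856.7) was at 9.79 and 9.64 log2 CPM in *Id2*+/+ and at 9.90 and 9.75 in *Id2*Δ/Δ libraries, which overlap. The difference on the log2 scale was 0.10 (SE 0.11, interval -0.14 to 0.35). *Gpx4* had a log2 fold change of 0.12 (SE 0.14), with its highest value, 7.30, in *Id2*Δ/Δ replicate 1 and the other 3 libraries between 6.97 and 7.06.

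The remaining peroxidases were low and all overlapped. *Gpx7*, of the endoplasmic reticulum, lay between 2.68 and 3.31 log2 CPM, and *Gpx3*, a secreted enzyme, had 50 and 38 reads in *Id2*+/+ and 37 and 65 reads in *Id2*Δ/Δ libraries. *Gpx8* had 6 and 42 reads in *Id2*+/+ and 23 and 43 reads in *Id2*Δ/Δ libraries, so its log2 fold change of 0.87 had an SE of 1.00. In all, 4 of the 5 peroxidases had a fold change above 0 and none had libraries that did not overlap.

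Glutathione transferases couple glutathione to electrophiles, and the microsomal MGST proteins do so in membranes or make leukotriene C4. The most abundant by CPM of the 9 measured, *Gstm1* (ENSMUSG00000058135.12), was at 7.41 and 7.32 log2 CPM in *Id2*+/+ and at 7.26 and 7.18 in *Id2*Δ/Δ libraries. Both *Id2*Δ/Δ values were lower, with a log2 fold change of -0.15 (SE 0.12, interval -0.42 to 0.13). Several genes of the Gstm family are similar in sequence, and how reads shared between them were counted is not given in the sources used here.

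*Mgst2* (ENSMUSG00000074604.9), a membrane enzyme that can make leukotriene C4, was at 4.61 and 4.63 log2 CPM in *Id2*+/+ and at 3.74 and 4.19 in *Id2*Δ/Δ libraries. In reads this was 347 and 384 against 239 and 345. The *Id2*+/+ libraries were nearly equal, both *Id2*Δ/Δ libraries were lower, and the *Id2*Δ/Δ libraries differed from each other by 0.45. Its log2 fold change was -0.65 (SE 0.23, interval -1.20 to -0.11), a level 1.57-fold lower, with an unadjusted limma p of 0.0248 and an adjusted p of 0.910. It was the only member whose interval left out 0, and its log2 fold change ran from -0.88 to -0.43 as each library was left out.

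*Gstk1*, a mitochondrial and peroxisomal transferase, was at 3.75 and 3.64 log2 CPM in *Id2*+/+ and at 3.54 and 3.45 in *Id2*Δ/Δ libraries. Its groups did not overlap either, with a log2 fold change of -0.20 (SE 0.24). The other 6 transferases (*Gsto1*, *Gstp1*, *Gstm5*, *Mgst1*, *Gsta4* and *Mgst3*) overlapped, with log2 fold changes from -0.06 for *Mgst1* to 0.13 for *Mgst3*. With the length trend taken out, *Gstp1* and *Gsta4* moved from 0.04 and 0.06 to -0.04 and -0.01.

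*Cat* (ENSMUSG00000027187.10), catalase of the peroxisome, was the most abundant by CPM of the genes for superoxide dismutases and catalase. It was at 7.75 and 7.71 log2 CPM in *Id2*+/+ and at 7.46 and 7.61 in *Id2*Δ/Δ libraries. Both *Id2*Δ/Δ values were the lower ones, and the log2 fold change was -0.19 (SE 0.12, interval -0.46 to 0.08). The cytosolic dismutase *Sod1* (0.13, SE 0.16) and the mitochondrial dismutase *Sod2* (-0.04, SE 0.13) overlapped between genotypes, and *Sod2* was at 0.04 with the length trend taken out.

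Peroxiredoxins reduce hydrogen peroxide through a reactive cysteine, and sulfiredoxin, *Srxn1*, repairs them when that cysteine is over-oxidized. Of the 6 peroxiredoxins and *Srxn1*, 6 had a log2 fold change above 0, with a median of 0.10, and *Prdx4* moved below 0 (-0.02) with the length trend taken out. *Prdx6* (ENSMUSG00000026701.15), which takes electrons from glutathione, was the most abundant by CPM, at 8.90 and 9.24 log2 CPM in *Id2*+/+ and at 9.08 and 9.26 in *Id2*Δ/Δ libraries. These values overlap, with a log2 fold change of 0.10 (SE 0.14).

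*Prdx1* (ENSMUSG00000028691.12), a cytosolic NRF2 target, was at 8.25 and 8.39 log2 CPM in *Id2*+/+ and at 8.66 and 8.41 in *Id2*Δ/Δ libraries. The groups did not overlap, but *Id2*+/+ replicate 2 and *Id2*Δ/Δ replicate 2 differed by little. *Prdx1* had a log2 fold change of 0.21 (SE 0.12, interval -0.08 to 0.50). *Prdx2*, which is abundant in red cells, was at 7.85 and 7.82 in *Id2*+/+ and at 8.04 and 7.86 in *Id2*Δ/Δ libraries, with a log2 fold change of 0.11 (SE 0.12). Its higher value also came from *Id2*Δ/Δ replicate 1. Exons of *Prdx2* overlap those of *Junb* and *Rnaseh2a* on the other strand. *Prdx5* was nearly equal in all 4 libraries, between 6.31 and 6.34, and the mitochondrial *Prdx3*, the endoplasmic *Prdx4* and *Srxn1* overlapped.

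Thioredoxins pass electrons to peroxiredoxins and to ribonucleotide reductase, and TXNIP binds and inhibits thioredoxin. *Txnip* (ENSMUSG00000038393.14), the most abundant by CPM of this system, was at 9.40 and 9.27 log2 CPM in *Id2*+/+ and at 9.36 and 9.33 in *Id2*Δ/Δ libraries. The log2 fold change of *Txnip* was 0.01 (SE 0.10, interval -0.22 to 0.24), and -0.0058 when the libraries were rescaled by their median ratio. No separation between genotypes was seen for this inhibitor.

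*Txn1* (ENSMUSG00000028367.5), the cytosolic thioredoxin, was at 6.80 and 6.80 log2 CPM in *Id2*+/+ and at 7.33 and 6.87 in *Id2*Δ/Δ libraries. Only *Id2*Δ/Δ replicate 1 was clearly apart, and the log2 fold change of 0.30 (SE 0.17, interval -0.10 to 0.70) was 0.07 without that library and 0.53 without *Id2*Δ/Δ replicate 2. *Txn2*, the mitochondrial thioredoxin, was at 7.03 and 7.04 in *Id2*+/+ and at 7.22 and 7.14 in *Id2*Δ/Δ libraries. Both *Id2*Δ/Δ values were higher, with a log2 fold change of 0.15 (SE 0.12, interval -0.13 to 0.42). The reductases *Txnrd1* (cytosolic) and *Txnrd2* (mitochondrial) had log2 fold changes of -0.03 (SE 0.11) and -0.05 (SE 0.18).

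*Nfe2l2* (ENSMUSG00000015839.6), the gene of NRF2, was at 6.64 and 6.65 log2 CPM in *Id2*+/+ and at 6.81 and 6.71 in *Id2*Δ/Δ libraries. *Keap1* (ENSMUSG00000003308.15), the gene of its inhibitor, was at 7.17 and 7.27 in *Id2*+/+ and at 7.03 and 7.12 in *Id2*Δ/Δ libraries. Neither pair of groups overlapped. The log2 fold changes were 0.11 (SE 0.13, interval -0.18 to 0.40) for *Nfe2l2* and -0.15 (SE 0.12, interval -0.43 to 0.13) for *Keap1*. NRF2 is controlled mainly at the protein level, which these data do not measure.

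The genes that NRF2 is known to drive took no common direction. Of 15 members known as NRF2 targets, 8 had a log2 fold change above 0 and 7 below, with a median of 0.03, or -0.0035 with the length trend taken out. *Nqo1*, a quinone reductase often used as a readout of NRF2, had 128 and 181 reads in *Id2*+/+ and 239 and 195 reads in *Id2*Δ/Δ libraries. Both *Id2*Δ/Δ read counts were higher, but the levels overlapped, at 3.14 and 3.51 log2 CPM in *Id2*+/+ and 3.74 and 3.41 in *Id2*Δ/Δ libraries. The log2 fold change of *Nqo1* was 0.25 (SE 0.28, interval -0.41 to 0.91). *Hmox1* (ENSMUSG00000005413.8), the inducible heme oxygenase, had 94 and 181 reads in *Id2*+/+ and 87 and 113 reads in *Id2*Δ/Δ libraries, or 2.70 and 3.51 against 2.29 and 2.66 log2 CPM.

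Although the groups of *Hmox1* did not overlap, *Id2*+/+ replicate 1 and *Id2*Δ/Δ replicate 2 were 2.70 and 2.66 log2 CPM. Its log2 fold change was -0.63 (SE 0.38, interval -1.52 to 0.26), and ran from -1.04 to -0.22 as each library was left out. *Hmox2*, the constitutive heme oxygenase, was at -0.06 (SE 0.12). *Fth1* (ENSMUSG00000024661.6), the ferritin heavy chain, was at 9.88 and 9.86 log2 CPM in *Id2*+/+ and at 9.89 and 9.91 in *Id2*Δ/Δ libraries. Its log2 fold change of 0.03 had the narrowest interval of the members, from -0.18 to 0.24. *Ftl1*, the light chain, was at -0.10 (SE 0.12). Processed pseudogenes of ferritin (*Ftl1-ps1*, *Ftl1-ps2*, *Fth-ps2* and *Fth-ps3*) and of thioredoxin (*Txn-ps1*) have rows of their own with at most 161 reads in a library, and how reads were split between them and *Fth1*, *Ftl1* and *Txn1* is not given.

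A list of 7 members with a mitochondrial protein held *Sod2*, *Prdx3*, *Prdx5*, *Txn2*, *Txnrd2*, *Glrx2* and *Gstk1*. It was set by hand, is not limited to proteins found only in mitochondria, and does not hold every member with a mitochondrial form. These 7 had a median log2 fold change of 0.01, with 4 above 0 and 3 below. Short transcripts read slightly higher in *Id2*Δ/Δ libraries across the whole table, with a median log2 fold change of 0.10 for tested genes of up to 1744 bases and -0.08 for those of 4421 bases and more, the shortest and the longest of 4 classes of equal size. The members are short, with a median of 1826 bases against 2955, and 21 of 43 are in the shortest class. With the length trend taken out, the members' median was 0.03 and that of all tested genes was 0.03.

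Around the members lies a wider set of 65 genes of glutathione turnover, NADPH supply, other redox proteins and NRF2 partners. Of these, 59 had a row and 57 were tested. None was called by limma at an adjusted p under 0.05. At an unadjusted p under 0.05 stood 2 of 57, beside 4.67% of all tested genes, and both had higher *Id2*Δ/Δ values. The set's median log2 fold change was 0.05, with 33 above 0 and 24 below. Without overlap between genotypes, 14 of the 57 read higher in *Id2*Δ/Δ (19.0% of all tested genes) and 5 read lower (15.8%).

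*Me1*, the cytosolic malic enzyme that makes NADPH, was at 1.29 and 1.89 log2 CPM in *Id2*+/+ and at 3.07 and 2.65 in *Id2*Δ/Δ libraries. In reads this was 36 and 59 against 147 and 112. The log2 fold change was 1.27 (SE 0.41, interval 0.32 to 2.22), with an unadjusted limma p of 0.0154 and an adjusted p of 0.910. The groups lay clearly apart. *Ggct*, which encodes gamma-glutamylcyclotransferase of glutathione breakdown, had 115 and 159 reads in *Id2*+/+ and 311 and 256 reads in *Id2*Δ/Δ libraries. *Ggct* had a log2 fold change of 0.80 (SE 0.27, interval 0.16 to 1.44), with an unadjusted limma p of 0.0204 and an adjusted p of 0.910. Both kept their direction as each library was left out.

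Libraries of one genotype also differed. Replicate 2 was compared with replicate 1, with genotype as a term in limma, and none of the 43 members was called at an adjusted p under 0.05, while 0.189% of all tested genes were. At an unadjusted p under 0.05 stood 3 members, beside 5.88% of all tested genes. Both replicate 2 libraries lay above both replicate 1 libraries in 3 members (16.1% of all tested genes) and below in 8 (16.8%). The median difference of the members was -0.04.

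*Mgst1*, the microsomal transferase that is abundant in liver and granulocytes, was at 4.78 and 4.49 log2 CPM in the replicate 1 libraries and at 3.84 and 4.01 in the replicate 2 libraries. The difference, replicate 2 minus replicate 1, was -0.71 (SE 0.25, unadjusted limma p of 0.0140, adjusted p of 0.725), and its genotype difference was -0.06. Most neutrophil markers moved the same way. All 12 had a row, and their sum was 286 and 264 CPM in the replicate 1 libraries and 172 and 143 CPM in the replicate 2 libraries. All 10 that were tested were lower in both replicate 2 libraries (16.8% of all tested genes), 3 of them called (0.189%). Of those not tested, *Ctsg* had 1 and 23 reads in the replicate 1 libraries and 4 and 26 in the replicate 2 libraries. *Mmp9* had 28 and 0 reads against 15 and 2. Of the defining markers, *Ngp* was at 5.30, 3.47, 4.20 and 2.55 log2 CPM in *Id2*+/+ replicates 1 and 2 and *Id2*Δ/Δ replicates 1 and 2, and only *Mmp9* was at 0 reads in a library. Their part in the level of *Mgst1* was not tested. In RNA of a sorted pool, fewer cells of a type and less RNA per cell cannot be told apart. The other members with an unadjusted p under 0.05 were *Gpx8*, with a difference of 1.88 (SE 0.82) on few reads, and *Prdx6*, with 0.26 (SE 0.12).

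**Figure D4:**
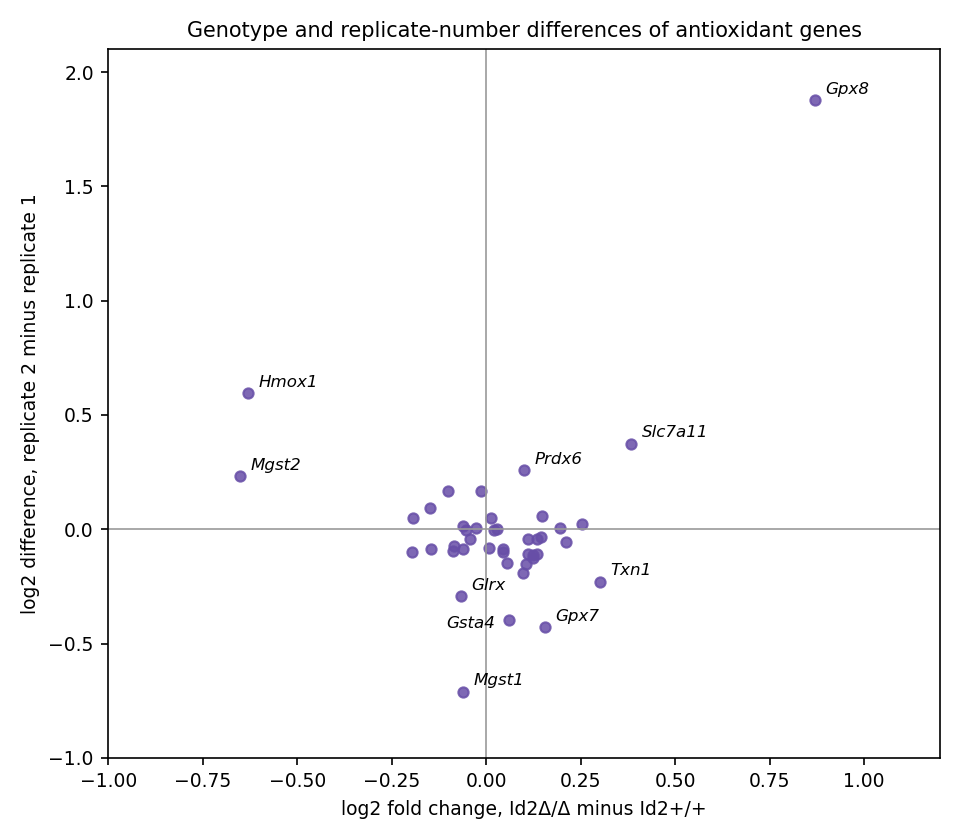
Log2 fold change between genotypes (x axis) against the log2 difference between replicate numbers (y axis) for the 43 genes, 1 point a gene. Most points lie close to 0 on both axes, *Mgst2* and *Hmox1* stand to the left, *Mgst1* stands low at -0.71, and *Gpx8*, a gene with 6 to 43 reads, stands at the upper right.

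Markers of other blood cells that the sort could hold were read beside these genes. Of 12 erythroid markers, 10 had a row, with sums of 105 and 87.0 CPM in *Id2*+/+ and 108 and 128 CPM in *Id2*Δ/Δ libraries. The globin genes *Hba-a1* and *Hba-a2* and the red-cell gene *Ermap* were at 0 reads in *Id2*Δ/Δ replicate 1, the library with the highest *Prdx2*. *Hbb-bs* (6 reads) and *Klf1* (47 reads) were also at their lowest there. *Car1* was at its highest there, at 3.03 log2 CPM, beside 2.94 in *Id2*+/+ replicate 1. In that library *Hbb-bt* (316 reads) and *Tfrc* were above both *Id2*+/+ libraries, and *Alas2* and *Epor* lay between the values of the others. Of the 8 erythroid markers tested, 4 had a log2 fold change above 0 and 4 below. Only *Tfrc* (0.53) had an unadjusted limma p under 0.05 (0.00965, adjusted p of 0.910), beside 4.67% of all tested genes. The 8 megakaryocyte markers summed to 488 and 550 CPM in *Id2*+/+ and to 565 and 632 CPM in *Id2*Δ/Δ libraries, with 3 wholly higher (19.0% of all tested genes) and 1 wholly lower (15.8%) in *Id2*Δ/Δ. Of these 8, *Pf4* and *Gp1bb* had an unadjusted limma p under 0.05 (4.67% of all tested genes), both with higher *Id2*Δ/Δ values. Of 8 macrophage and monocyte markers 6 had a row, with sums of 223, 212, 270 and 201 CPM in *Id2*+/+ replicates 1 and 2 and *Id2*Δ/Δ replicates 1 and 2, and of 8 B-cell and T-cell markers 3 had a row, with sums of 35.0, 41.3, 53.2 and 37.1 CPM. The part of these cells, and of the HSC markers given above, in the members' values was not tested.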

How the data were processed

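RNA was taken from pooled sorted HSCs, with 2 libraries for each genotype. The submitters' processing notes name CASAVA 1.8.4, Trimmomatic 0.30, TopHat2 2.0.8, RSEM and STAR, and the builds mm9 and NCBIM37, without saying which applied. The deposited values are log2 CPM. The unit was read from the values. The sorted columns differ by less than 0.1 in 88.4% of ranks, as after quantile normalization, which the sources used here do not name, so a shift shared by most genes cannot be seen.

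Reads were recovered below 32 CPM from the rank of distinct values within a library, and depth from them. No count model was run, since higher reads are not known. The 15895 genes that averaged 1 CPM or more were fitted with limma 3.58.1 in R 4.3.3 (lmFit, then eBayes with trend=TRUE). The model held genotype alone, tests were two-sided, and p-values were adjusted by Benjamini-Hochberg. No pseudocount was added to the deposited values. Those values are finite for genes without a read (*Id2* at -4.25 and -5.04 log2 CPM in *Id2*Δ/Δ libraries), so fold changes at few reads depend on how that was done. The fit was tested on simulated data. Transcript lengths were the longest of GENCODE M21, known for 99.7% of genes, and the length trend was a natural spline with 5 degrees of freedom per library. Of the members, 10 share exon sequence with a gene on the other strand.

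The members, lists, motif and tests were chosen with earlier results of these data known. Named with every library's value were *Gss*, *Nfe2l2*, *Keap1*, the most abundant member of each role, members with an unadjusted p under 0.05 and, in each direction, the 5 largest changes without overlap (*Prdx2*, just outside this rule, was added after its values were seen), and, of the wider set, genes with an unadjusted p under 0.05. The alternatives varied the pseudocount, scaling, filter, trend, replicate block, length correction and the libraries kept.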

Additional observations from a re-analysis of the deposited data

How the results depend on the processing

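No member was called under any of 13 alternatives, and the smallest adjusted p of a member under any of them was 0.267. The number of genes called was 0 in all of them except with the replicate number as a block, alone or with the length correction, where it was 1 (*C130089K02Rik*). The replicate numbers were not taken to pair the libraries, since the labels do not say that they do and only 2 pairs exist. Deviations of same-numbered libraries correlated at 0.0592 over all tested genes, 0.144 over genes above 32 CPM and 0.0479 over the members. The block changed no call of a member, and *Mgst2* stayed the only member with an unadjusted p under 0.05 with it.

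As each library was left out, the members with an unadjusted p under 0.05 numbered from 0 to 7, those wholly higher from 11 to 23 and those wholly lower from 10 to 15, where fewer libraries make an overlap rarer. The shares of all tested genes without overlap (19.0% higher and 15.8% lower) were taken with all 4 libraries. They do not apply with a library left out, so whether these overlap counts are unusual was not tested. The members' median ran from -0.031, when *Id2*Δ/Δ replicate 1 was left out, to 0.15, when *Id2*Δ/Δ replicate 2 was. The median of the wider set ran from -0.026 to 0.16 for the same libraries. The comparison of replicate numbers could not be fitted with a library left out.

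The sign of the log2 fold change was kept in every alternative that gave a value for 19 of 43 members. It turned in 24 as single libraries were left out, and the causes were not tested. In glutathione synthesis and reduction the lowest and highest values were -0.058 and 0.35 for *Gss*, -0.18 and 0.0093 for *Gclc*, -0.17 and 0.046 for *Gclm*, -0.64 and 1.41 for *Slc7a11*, -0.30 and 0.17 for *Glrx*, and -0.085 and 0.11 for *Glrx2*. Among peroxidases they were -0.43 and 0.41 for *Gpx3*, -0.034 and 0.28 for *Gpx4*, -0.16 and 0.47 for *Gpx7*, and -0.53 and 2.27 for *Gpx8*. Among transferases they were -0.34 and 0.46 for *Gsta4*, -0.10 and 0.18 for *Gstp1*, -0.037 and 0.15 for *Gsto1*, -0.53 and 0.41 for *Mgst1*, and -0.042 and 0.31 for *Mgst3*. In the other groups they were -0.031 and 0.30 for *Sod1*, -0.11 and 0.027 for *Sod2*, -0.16 and 0.36 for *Prdx3*, -0.067 and 0.16 for *Prdx4*, -0.068 and 0.27 for *Prdx6*, -0.21 and 0.029 for *Srxn1*, -0.14 and 0.035 for *Txnrd2*, -0.061 and 0.075 for *Txnip*, and -0.22 and 0.020 for *Ftl1*. Of the other settings, the length correction, with or without the block, gave 0.014 for *Gclm*, -0.0085 for *Gsta4*, -0.037 for *Gstp1*, 0.039 for *Sod2* and -0.019 for *Prdx4*. Adding 5 CPM before the log gave 0.0042 for *Gpx3*, and median-ratio scaling gave -0.0058 for *Txnip* and -0.0014 for *Glrx2*.

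With a mean of at least 10 CPM required, *Gpx3*, *Gpx7*, *Gpx8*, *Slc7a11*, *Hmox1* and *Mgst3* gave no value. Each of these 6 genes has an interval that reaches past 1.5-fold in at least 1 direction. Reads of these genes in a library ran from 6 for *Gpx8* to 183 for *Mgst3*. *Gpx8* and *Slc7a11* differed between libraries of one genotype, with 6 and 42 reads and 8 and 36 reads in *Id2*+/+ libraries.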
